A study of Caenorhabditis elegans with 2 samples.

Results

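Oxidative phosphorylation genes encode the machinery with which mitochondria turn electrons from nutrients into ATP. The genes described here are the nuclear protein-coding genes whose symbols start nuo-, nduf-, ndub-, sdha-, sdhb-, sdhd-, ucr-, cyc-, cox-, atp-, asb- or asg-, with gas-1, mev-1 and isp-1 added, which gave 59 of the 19973 nuclear protein-coding genes of the annotation. The rule uses symbols and no measured value, but it was set with earlier results of these data known. Genomic sites of the DM-domain transcription factor DMD-9 were mapped by chromatin immunoprecipitation and sequencing (ChIP-seq) in 1 group of 2 biological replicates. The worms were strain RJP5357, which carries rp169(dmd-9::GFP::AID::TEV::3xFLAG) on chromosome IV, an insertion made with CRISPR targeting dmd-9. Both replicates were whole L4 larvae of 48 hours, synchronised by bleaching and L1 starvation, and the fusion protein was recovered with an antibody against GFP. Whole larvae mix all tissues, so strong binding in few cells and weak binding in many cannot be told apart.

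The respiratory chain passes electrons from NADH (complex I) and succinate (complex II) through ubiquinone to complex III, then through cytochrome c to complex IV, which reduces oxygen. The proton gradient built on the way drives ATP synthase, complex V. Complexes I, III, IV and V each combine proteins encoded in the mitochondrial genome with many encoded in the nucleus. The mitochondrially encoded subunits are not among the 59 genes, and none of the peak lists held a peak on mitochondrial DNA. In worms many messages receive a spliced leader, so an annotated 5' end can lie downstream of the true start of transcription.

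A summit is the position of highest signal in a peak, and a summit was given to a gene when it lay from 1000 bp upstream to 200 bp downstream of the gene's 5' end. The sequences below are the DNA around the summits at 4 of the 8 genes with a peak, shown because the results turn on these sites. Each runs up to 100 bases to either side of the summit, on the strand of the gene and on WBcel235 (ce11) coordinates from the RefSeq genome, and protein-coding exons are left out. Capitals mark matches to any of 8 short motifs that are taken up again with the counts.
cox-5A, chrIII:12905121-12905321, plus strand: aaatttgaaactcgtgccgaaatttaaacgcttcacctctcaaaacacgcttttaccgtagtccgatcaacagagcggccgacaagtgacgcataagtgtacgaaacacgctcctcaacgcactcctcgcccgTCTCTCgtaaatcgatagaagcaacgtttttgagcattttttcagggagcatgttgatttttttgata
atp-2, chrIII:5228054-5228254, plus strand: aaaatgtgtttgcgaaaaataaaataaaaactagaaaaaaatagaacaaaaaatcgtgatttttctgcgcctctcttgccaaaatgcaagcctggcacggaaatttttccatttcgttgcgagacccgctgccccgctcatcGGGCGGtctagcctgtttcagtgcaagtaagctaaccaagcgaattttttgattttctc
atp-5, chrV:11124042-11124185, minus strand: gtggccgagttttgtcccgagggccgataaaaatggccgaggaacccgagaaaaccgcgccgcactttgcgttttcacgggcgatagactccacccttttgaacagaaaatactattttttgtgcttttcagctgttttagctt
nduf-9, chrIII:3249115-3249315, minus strand: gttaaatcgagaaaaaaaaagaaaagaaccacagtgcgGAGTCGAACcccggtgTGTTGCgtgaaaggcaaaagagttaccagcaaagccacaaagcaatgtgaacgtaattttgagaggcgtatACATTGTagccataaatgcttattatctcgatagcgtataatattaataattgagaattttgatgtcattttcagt
The nduf-9 summit lies inside the microRNA gene cel-mir-4936. No small RNA gene was found at the other 3 sites.

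Among the 59 genes, DMD-9 peaks were found at genes for ATP synthase and cytochrome c oxidase subunits and at 1 complex I gene. In the joint list, which the authors derived from both replicates and thresholded on reproducibility, 8 of the 59 genes (13.6%) had a summit at the 5' end, beside 3.88% of all protein-coding genes. Complex V had 4 of 9 genes and the subunits of complex IV had 3 of 7, while the complex I genes covered by the symbol rule had 1 of 21. Complex II had 0 of 5, complex III 0 of 7, the cytochrome c genes 0 of 2 and the assembly factors of complex IV 0 of 8. In a further list of both replicates that the authors named conservative, 7 of the 59 genes had a summit beside 3.91% of all genes, with atp-4 the 1 gene lost. The median signal of the 8 genes' peaks was 118 and that of all 775 genes with a joint peak was 101. The signal is the peak caller's own value, is not scaled between lists, and has no known depth behind it.

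**Figure D1:**
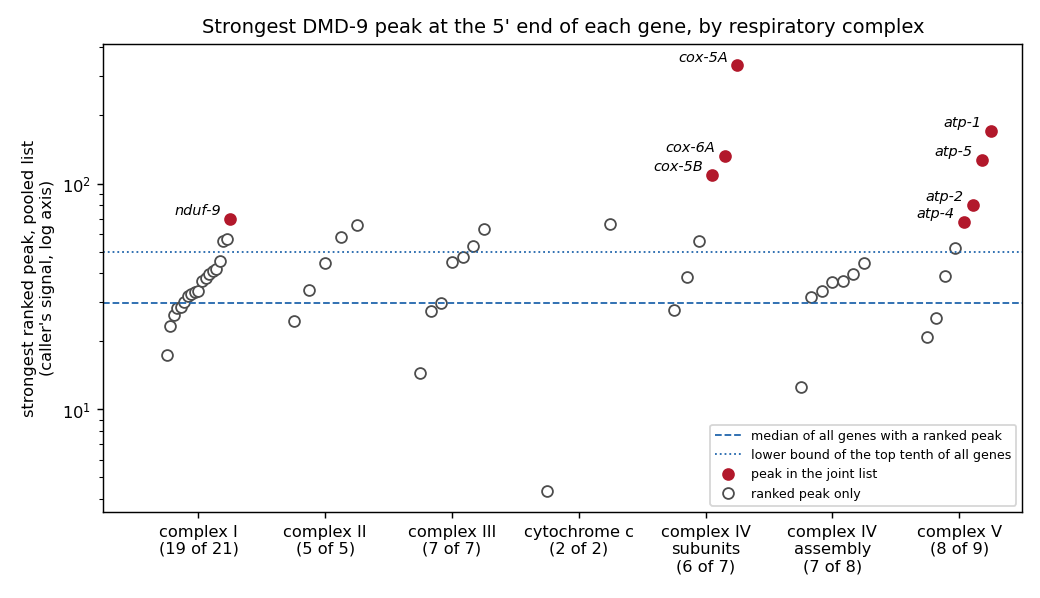
Each point is the strongest peak of the pooled ranked list with its summit in the 5' end window of a gene (vertical axis, caller's signal, log scale), grouped by complex (horizontal axis, with the number of genes that have such a peak). The 8 filled points are genes with a joint peak, of which cox-5A is highest at 334, and the lines at 29.6 and 49.7 are the median of all genes with a ranked peak and the lower bound of the top 10% of all genes.

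ATP synthase genes with a peak encoded parts of both its catalytic head and its stalk. The gene atp-1 encodes the alpha subunit of the head, and its summit lay at position -5 bp from the 5' end (negative positions are upstream). Its joint signal was 172, and the replicates gave 96.8 (replicate 1) and 81.7 (replicate 2). The gene atp-5, which encodes subunit d of the stalk, had a joint signal of 127 at -275 bp, with 76.1 in replicate 1 and 55.6 in replicate 2. Both genes were thus in each replicate's own thresholded list. The atp-5 summit was closer to lmtr-3, a gene on the opposite strand whose 5' end was 44 bp away (position -44 bp), and the atp-1 summit also lay at -185 bp from mcrs-1.

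Support for the other 2 ATP synthase genes came from fewer lists. The beta subunit gene atp-2 had a joint signal of 80.3 at -263 bp, between its own 5' end and that of C34E10.10 on the opposite strand (-270 bp). The summit also lay in the window of C34E10.12. In replicate 2 the same site had a signal of 54.7. No peak of replicate 1 overlapped it, and the strongest ranked peak of replicate 1 in the window was another one, at 164 bp downstream with a signal of 38.7. The gene atp-4 encodes coupling factor 6 of the stalk and had a joint signal of 67.5 at 85 bp downstream, inside the gene. The summit also lay in the window of T05H4.11 (-766 bp). The ranked peaks at atp-4 had a signal of 25.7 in replicate 1 and 37.5 in replicate 2, and atp-4 was in neither replicate's thresholded list. The summits of these ranked peaks lay closer to the 5' end, at 8 bp downstream in replicate 1 and 16 bp in replicate 2.

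The remaining ATP synthase genes had no joint peak. Ranked lists also hold candidate peaks below the threshold. In the pooled ranked list, the one of both replicates that holds every joint peak, asg-1 had a signal of 51.9, atp-3 (the oligomycin sensitivity subunit) 38.8, asb-1 25.5 and asg-2 20.9. No ranked peak was found at asb-2. The paired genes asb-1 and asb-2 encode subunit b, and asb-1 is known as the germline form.

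Among cytochrome c oxidase subunits, cox-5A had the highest signal of all 59 genes. Its joint signal of 334 ranked 18th of 1379 joint peaks, and it was 158 in replicate 1 and 177 in replicate 2. The summits of the 2 replicates were 4 bp apart, at -274 and -270 bp, and the window of no other protein-coding gene held the summit. The next protein-coding gene upstream, unc-71 on the opposite strand, began 13752 bp away. The gene cox-5B had a joint signal of 109 at -29 bp, with 53.9 in replicate 1 and 53.5 in replicate 2. For cox-6A the values were 132, 67.8 and 69.1. Its summit lay at -824 bp, within 100 bp of a small nuclear RNA (snRNA) gene that the peak overlapped. All 3 subunit genes were in both replicates' own lists.

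The cox-6A site was the 1 place among the 8 where the DNA is repeated elsewhere in the genome. Of the 50-base stretches within 100 bp of its summit, 63.2% occur once in the nuclear chromosomes, and some occur up to 20 times. At the other 7 sites every such stretch occurs once. Reads from repeated stretches could therefore not be placed with the same certainty here, and their part in the signal was not tested.

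Another subunit gene, cox-6B, was counted without a peak because of how it is annotated. Its gene record starts with a transcript at position 2699663 of chromosome III, 86539 bp upstream of the start of its other transcript at 2786202. At the upstream start the strongest ranked peak had a signal of 27.7. At the downstream start a joint peak lay at -143 bp (2785917 to 2786200, signal 104.6), with 61.0 in replicate 1 and 42.9 in replicate 2, and the value of replicate 2 was not past the authors' threshold. The same summit lay in the windows of Y71H2AM.20 (-111 bp) and of nduc-2 (-793 bp), a complex I subunit gene outside the symbol rule. With the 5' ends of all transcripts used, 9 of the 59 genes and 4.22% of all genes had a joint summit, and 4 of 7 complex IV subunits did. The other 3 subunit genes had ranked signals of 55.6 (cox-6C) and 38.5 (cox-4), with no ranked peak at cox-7C.

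**Figure D2:**
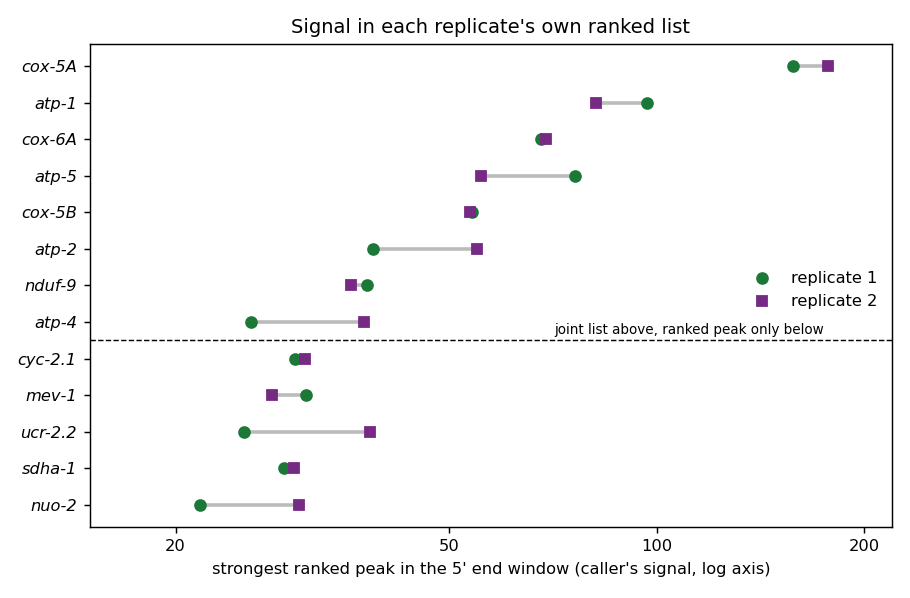
For the 8 genes with a joint peak and the 5 others of highest pooled ranked signal, the horizontal axis (log scale) gives the strongest ranked peak in the 5' end window in replicate 1 (circles) and replicate 2 (squares). From cox-5A to cox-5B each replicate lies above 50, and from nduf-9 downwards all values lie below 40. The 2 values of atp-2, and those of nduf-9, come from different peaks in the window.

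Complex I, the largest group, had a single joint peak among the 21 genes that the symbol rule covers. A further 13 complex I subunit genes lie outside the rule, and 2 of them had a joint peak. The peak inside the rule was at nduf-9, an accessory subunit gene, with a signal of 69.7 at -640 bp. Its global irreproducible discovery rate (IDR, the expected share of peaks that do not repeat) was 0.00697. The overlapping ranked peaks had signals of 38.0 in replicate 1 and 33.3 in replicate 2, with summits 67 bp apart, and neither replicate's thresholded list held the gene. Of the 21 genes, the next were nuo-2 (56.6), nduf-2.2 (55.6) and nuo-1 (45.2). The remaining 15 with a ranked peak had signals from 17.4 at gas-1 to 41.9 at nuo-4. At nuo-1, the NADH-binding subunit, replicate 1 had a ranked peak of 42.9 and replicate 2 had none in the window. The pooled ranked list had no peak at ndub-6 and nuo-6. The other ranked list of both replicates had a signal of 9.41 at ndub-6 and 30.2 at nuo-6. Replicate 2 had a ranked peak of 28.6 at nuo-6.

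Complexes II and III and cytochrome c had no joint peak. Among the 51 genes without one, 2 of complex II came nearest to the threshold in the pooled ranked list. These were sdha-1, the flavoprotein of succinate dehydrogenase (signal 57.8, global IDR 0.0225), and mev-1, a membrane anchor of the same enzyme (65.6, IDR 0.0304). For sdha-1 the replicates gave 28.7 and 29.7, and for mev-1 they gave 30.9 and 27.6. The sdha-1 summit lay within 100 bp of a small nucleolar RNA (snoRNA) gene. The highest IDR on the other side was that of nduf-9. In complex III the core subunit gene ucr-2.2 had a signal of 63.1, with 25.1 and 38.3 in the replicates, and cyc-1 (cytochrome c1) had 52.9. In the pooled ranked list their global IDRs were 0.107 and 0.0878. Those of nduf-2.2 (0.0428) and nuo-2 (0.0497) in complex I were nearer the threshold. In the other ranked list of both replicates the order was reversed, with 0.0185 for ucr-2.2 and 0.0333 for cyc-1. There nuo-2 had 0.0639 and nduf-2.2 had 0.117. In that list cyc-2.1 (0.0176) and ucr-2.2 had lower IDRs than sdha-1 (0.0236) and mev-1 (0.0274). The Rieske protein gene isp-1 had a signal of 29.4, close to the median of 29.6 over all genes with a ranked peak.

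Related genes for the same protein differed in level. Of the 2 cytochrome c genes, cyc-2.1 had a pooled ranked signal of 66.0 at a global IDR of 0.112, with 29.9 in replicate 1 and 30.9 in replicate 2. In the other ranked list of both replicates its global IDR was 0.0176. The gene cyc-2.2 had 4.37 and no ranked peak in either replicate. Of the 2 flavoprotein genes, sdha-1 had 57.8 and sdha-2 had 24.7. The core subunit genes ucr-2.1, ucr-2.2 and ucr-2.3 had 45.0, 63.1 and 14.6. The differences between related genes were not tested.

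Assembly factors of complex IV, which deliver haem and copper or insert subunits, had no joint peak and a median ranked signal of 36.7, beside 29.6 for all genes. Their ranked signals ran from 12.6 at cox-19 to 44.7 at cox-15, with cox-14 at none, and 0 of 8 reached the top 10% of all genes. That top group starts at a signal of 49.7 and holds 10% of all genes by construction. It held 17 of the 59 genes, made up of 5 of 9 in complex V, 4 of 7 complex IV subunits, 3 of 21 in complex I, 2 of 5 in complex II, 2 of 7 in complex III and 1 of 2 for cytochrome c. A ranked peak of any strength was found at 54 of the 59 genes beside 75.7% of all genes, with a median signal of 38.7 beside 29.6. A ranked peak at a 5' end is thus common, and its presence alone says little.

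The replicates shared the stronger peaks. Of the 59 genes, 5 had a summit in replicate 1's own thresholded list (2.06% of all genes did) and 6 in that of replicate 2 (2.01%). The 5 genes in both lists were cox-5A, cox-5B, cox-6A, atp-1 and atp-5, against a background of 1.50%, and atp-2 was in replicate 2 alone. In the ranked lists 9 genes were in the top 10% of both replicates, where 4.89% of all genes were. These were the 8 genes with a joint peak except atp-4, with cyc-2.1 and sdha-1. Across the 7 joint peaks overlapped by a ranked peak of each replicate, the signal of replicate 2 was 0.731 (atp-5) to 1.46 (atp-4) times that of replicate 1. Over the 36 genes with a ranked peak in both replicates, Spearman's rho between the strongest signals was 0.650, and it was 0.443 over 6953 genes in all. Over the 28 of the 36 genes without a joint peak it was 0.305, so the higher value rests on the 8 genes with one. Those 8 come from a list thresholded on reproducibility, so the agreement of the replicates at them follows in part from that choice. The 0.443 includes genes with a joint peak and is no match for the 0.305. All points of a replicate share its library, and a gene's 2 values can come from different peaks of its window. Of the 36 genes, 20 (55.6%) had the replicates' summits within 50 bp of each other, as did 36.1% of all genes with both.

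**Figure D3:**
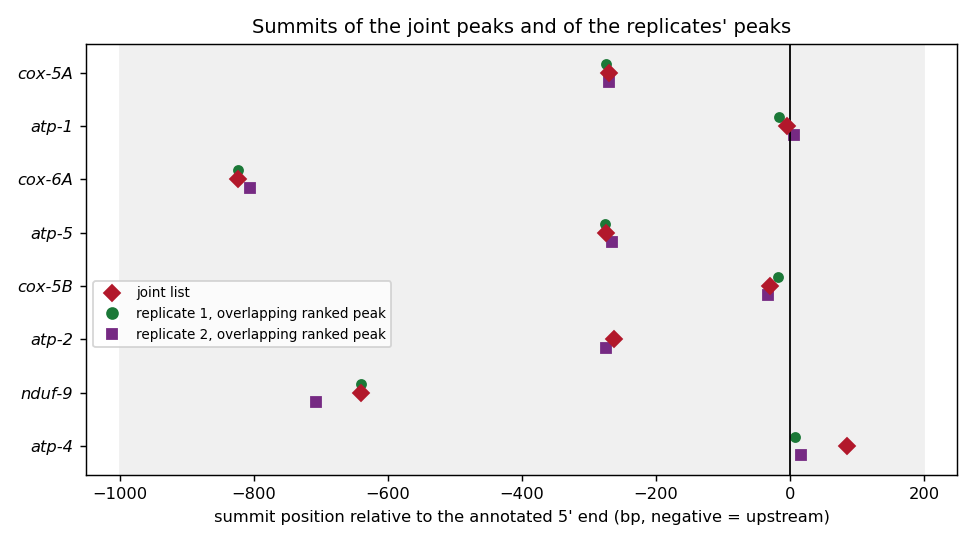
The horizontal axis gives the summit position from the annotated 5' end in bp, with the window shaded, for the joint peak (diamonds) and the overlapping ranked peaks of replicate 1 (circles) and replicate 2 (squares) at the 8 genes. The joint summits of cox-5A, atp-5 and atp-2 lie between -275 and -263 bp, and no peak of replicate 1 overlapped the one at atp-2.

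The summits were mostly upstream of the genes, as was the window itself (1000 bp upstream, 200 bp downstream), and varied in place. The median position was -266.5 bp, beside -258 bp for all 775 genes with a joint peak, and the range was -824 bp to 85 bp downstream. At 3 of the 8 genes (cox-5A, atp-2 and atp-5, whose sequences are printed above) the summit lay from 250 to 300 bp upstream, as it did at 8.39% of all genes with a joint peak. The limits of 250 and 300 bp were not planned, so the 2 shares are a description only. By chromosome, 4 of 13 of the genes on chromosome III had a joint peak, 2 of 17 on I, 2 of 5 on V, and none of 10 on II, 8 on IV and 6 on X. Over all genes the shares were 6.17% on III, 5.32% on I, 2.90% on V, 3.51% on II, 3.23% on IV and 3.19% on X.

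Many of the genes without a joint peak sit close behind another gene on the same strand, an arrangement found in worm operons, in which 1 promoter serves several genes. Of the 59 genes, 19 (32.2%) had a gene ending within 500 bp upstream on the same strand. The share was 20.6% of all protein-coding genes and 16.5% of all 775 genes with a joint peak. Of the 51 genes without a joint peak, 18 (35.3%) had this layout, and of the 8 with a joint peak atp-4 was the 1 such gene. At 3 of these 19 genes the upstream neighbour itself had a joint peak, where 3.88% of all protein-coding genes had one. The gene cyc-2.1 follows rpl-20, a ribosomal protein gene, whose peak had a signal of 327. The gene cox-18 follows Y55F3AR.2 (signal 291), and ucr-11 follows dad-1 (117). The rpl-20 and dad-1 summits lay at -1052 bp from cyc-2.1 and -1271 bp from ucr-11. Operons are not annotated in the gene models used, and whether this layout bears on the lack of a peak was not tested. The nearest upstream gene lay on the opposite strand within 1000 bp at 31 of the 59 genes (52.5%) and at 28 of the 51 (54.9%). The share was 21.3% of all protein-coding genes and 41.5% of all 775 genes with a joint peak. Of the 8 genes with a joint peak, 3 had this layout.

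The DNA under the 8 peaks shared base composition with other promoter peaks but no single motif. The GC content within 100 bp of the summit ran from 36.8% at nduf-9 to 52.2% at atp-4, with a median of 45.0%. The median was 44.3% over all 598 joint peaks in 5' end windows and 32.8% over the 201 bases that end at the 5' end of each gene. Each motif was sought on both strands in windows of 201 bases. The letters TGTTGC, part of sites known for DM-domain proteins, occurred at 3 of 8 (cox-6A, cox-5B and nduf-9), in 10.03% of all promoter peaks and in 8.79% of the windows before all genes. The letters ACAATGT, the core of sites known for fly Doublesex, occurred at nduf-9 alone, with shares of 3.01% and 3.41%. The GC-rich letters GGGCGG occurred at atp-1 and atp-2 (9.70% and 5.97%). The letters GAGAGA occurred at cox-5A (25.8% and 16.3%) and TATAAA at atp-4 (11.9% and 30.5%). The letters GTTCGANNC, which describe the internal B box of tRNA genes, occurred at nduf-9 (7.53% and 0.906%). Neither CACGTG (4.85% and 4.23%) nor CTGCGTCT (8.70% and 2.78%) occurred at any of the 8. In the printed sequences no match overlapped that of another motif, and the capitals TCTCTC at cox-5A are GAGAGA read on the other strand. A match describes the letters and is not shown to be a binding site.

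Lists of other mitochondrial genes had joint peaks at 0% to 15.4% of their genes, beside 3.88% of all protein-coding genes. The tricarboxylic acid cycle had 1 of 17 (5.88%), aco-2 (aconitase), with a signal of 86.0 at -364 bp that was in neither replicate's own list. Of 12 assembly factors and carriers outside the symbol rule, 1 (8.33%) had a joint peak. It was sco-1, which carries copper to complex IV, with a signal of 203 at -225 bp. The replicates gave 111 (replicate 1) and 99.98 (replicate 2). Of 8 mitochondrial chaperone and stress genes, 1 (12.5%) had a joint peak, hsp-60, with a signal of 223 and replicate values of 105 and 119.5. There were 0 of 4 for pyruvate dehydrogenase, 0 of 8 for coenzyme Q synthesis, 0 of 2 for ATP synthase regulators and 0 of 13 for protein import. These 4 lists hold too few genes to tell 0 from a share of 3.88%. Complex I subunits whose symbols start ndua-, ndab-, nduc-, ndus- or nduv- had 2 of 13 (15.4%), ndua-8 (signal 113) and nduc-2. That list was added after the values were seen. Mitochondrial ribosomal protein genes had 5 of 70 (7.14%), and cytosolic ones 30 of 81 (37.0%). The cytosolic share was below those of complex V (44.4%) and complex IV subunits (42.9%), which rest on 9 and 7 genes. The order against complex V changed with the list. Cytosolic ribosomal genes and complex V had 35.8% and 33.3% in the conservative list, and 27.2% and 22.2% in replicate 1's thresholded list. In that of replicate 2 they had 27.2% and 33.3%. Complex IV subunits had 42.9% in all of these lists. No test of these differences was made.

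**Figure D4:**
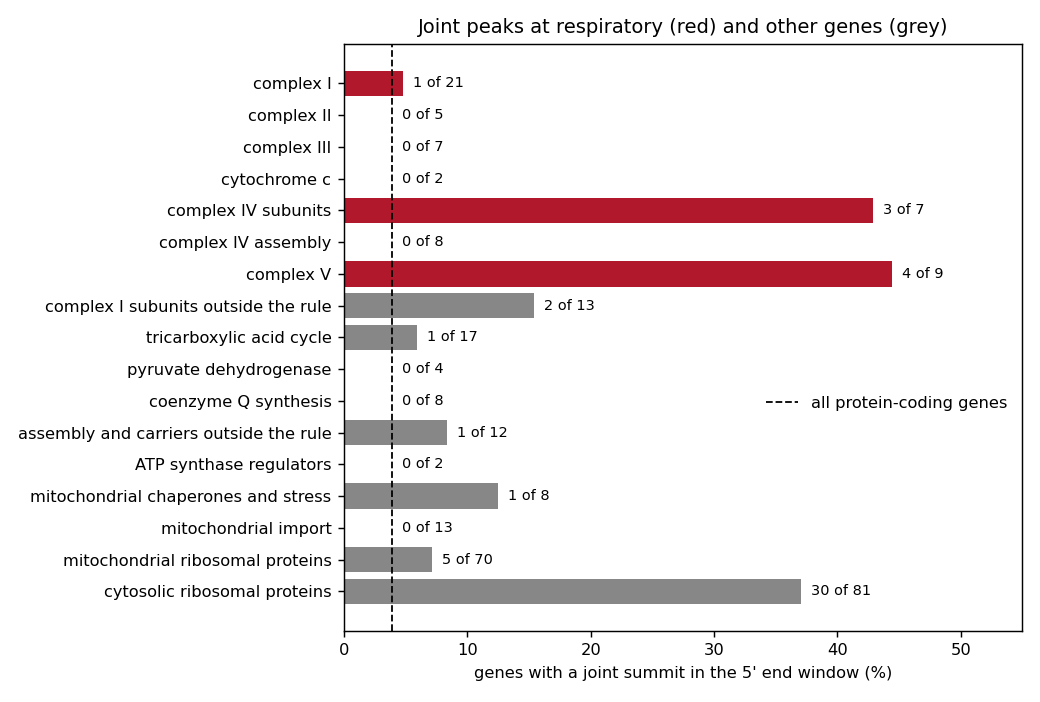
Bars give the percentage of genes in each list that had a summit of the joint list near the 5' end (horizontal axis from 0), with counts beside them, for the 7 groups of oxidative phosphorylation genes (red) and other lists (grey). The dashed line is the 3.88% of all protein-coding genes, and complex V, complex IV subunits and cytosolic ribosomal protein genes reach the highest shares, at 44.4%, 42.9% and 37.0%.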

How the data were processed

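ChIP-seq was done on 2 biological replicates of whole L4 larvae, with chromatin sonicated to 200 to 800 bp per the labels. The authors deposited 4 ranked and 4 thresholded peak lists on ce11, 1 of each from replicate 1 and replicate 2 and 2 of each from both together, derived from the alignments per the deposited README, which names a control for the signal tracks and does not name one for the peaks. Which aligner and peak caller were run is not given in the sources used here, and depth is unknown. The deposited signal is the caller's value per peak. On a −log10 scale the authors deposited a q value per peak and, in ranked lists, a global IDR. The highest global IDR of a joint peak was 0.00997. The deposited lists give each summit as another column, in bp from the peak start. The 16 columns of paired calls in the 2 ranked lists of the whole series were not used.

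Genes came from Ensembl release 115 (WBcel235, the coordinates of ce11) and sequence from the RefSeq genome of the same assembly. The sequence at cox-6A is not reported here. The 5' end was the outermost one of the gene record. All 59 genes were assigned to 7 groups by hand. The strongest peak per gene was taken in each list, and a gene's level was ranked among all 19973 genes. No test was made: there is 1 group, so counts stand beside those of all genes, and the replicates' values stand side by side. Named genes are those with a summit in the joint or a replicate's thresholded list, the 5 others of highest pooled ranked signal, and up to 4 genes per other list; further genes are named to account for every group. The genes and lists were chosen with earlier results of these data known. Assignment was tested on simulated data. Alternatives were the other lists, stricter IDR and q values, other windows, transcript 5' ends, nearest 5' end, overlap and removal of peaks near small RNA genes. Python 3.11.15, pandas 2.3.3 and numpy 2.4.6 were used.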

Additional observations from a re-analysis of the deposited data

How the results depend on the processing

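The count of 8 genes became 5 (replicate 1) to 6 (replicate 2) in the replicates' own lists, where all genes fell from 775 to 401 to 412, complex I to 0 and complex V to 2 to 3. It was also 5 at a global IDR of 0.001 or under (all genes 354, complex I 0, complex V 2) and at a q value of 0.05 or under (all genes 495, complex I 0, complex V 2). In each case cox-5A, cox-5B, cox-6A, atp-1 and atp-5 kept a peak and nduf-9 and atp-4 lost theirs. A window of 500 bp upstream to 100 bp downstream gave 6 genes, without nduf-9 (complex I 0) and cox-6A, and 2.89% of all genes. A window of 2000 bp upstream to 500 bp downstream gave 11, and 5.58% of all genes, with 1 gene gained in complex III (ucr-11), 1 for cytochrome c (cyc-2.1) and 1 assembly factor (cox-10). The nearest 5' end alone gave 7, without atp-5, and 2.88% of all genes. Removal of peaks near tRNA, snRNA and snoRNA genes gave 7, without cox-6A, and 3.51% of all genes. With microRNA genes also counted, an alternative added after the data were seen, it gave 6, without cox-6A and nduf-9 (complex I 0), and 3.48% of all genes. The complex I subunits outside the symbol rule, added after the data were seen, made 10 genes of 72. The median ranked signal was 21.7 to 27.3 in the replicates, whose signals are not on the scale of the pooled list. Within 50 bp of the summit TATAAA and GTTCGANNC had 0 matches. Of 126 alternative values 23 moved. A count that went from 8 to 5 was called moved, and one that went from 8 to 6 or to 11 was not. Many of the values that did not move were counts of 0 that stayed at 0. No paired analysis was possible because there is 1 group. Depth is unknown, so no limit from it can be given.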
